A study of Homo sapiens with 60 samples.

Results

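Soyo-san is a multi-herb formula of Korean medicine, known as Xiaoyao San in Chinese medicine. Mint (Menthae Herba) is among its usual constituents, although the labels do not give the composition used. The data described here are 6 of the 60 RNA-seq libraries of HepG2 cells, a human hepatocellular carcinoma line that keeps many hepatocyte functions. They are the 3 libraries labelled Soyo-san at 500 µg/mL and the 3 labelled Soyo-san at 20 µg/mL, chosen by those labels alone and examined over all genes. Both groups received the water extract for 24 h, so the comparison asks what changed with dose and not what changed on treatment. Soyo-san at 100 µg/mL (n = 3), the water extracts of mint and of the formula Okbyeongpung-san at 500 and 20 µg/mL (n = 3 each), and vehicle (n = 3) serve for comparison. The sample labels give the vehicle as 0.1% DMSO and the series' design text as 2% DMSO. Nothing in the labels ties the 3 replicates of a group to separate cultures. The p-values therefore describe spread among libraries of the same group, which may be technical. In the main fit that spread was estimated over the 57 replicated libraries of the series and not over the 6 alone.

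Library totals were 23132364 to 25138307 expected counts at 500 µg/mL and 23520133 to 26004779 at 20 µg/mL. Values are CPM, the usual depth-scaled counts, here on the TMM-adjusted library total, and a log2 fold change is 500 over 20 µg/mL with its standard error. The 10 hepatocyte markers summed to 45300 to 46600 CPM at 500 and 47700 to 49800 at 20 µg/mL. Endothelial, lung and neural markers summed to at most 6.23 CPM in any library, and fibroblast markers to at most 15.2 CPM. PTPRC, which marks leukocytes, was at 0. Leukocyte markers summed to 1770 to 1880 CPM at 500 and 1080 to 1160 at 20 µg/mL, nearly all of it LYZ (lysozyme), which averaged 1820 and 1110 CPM. Its part in other results was not tested. Mitochondrial transcripts took 10.4 to 13.8% of counts at 500 and 10.9 to 11.7% at 20 µg/mL. The nuclear RNA MALAT1 had 472, 470 and 465 CPM at 500 µg/mL and 405, 506 and 431 CPM at 20 µg/mL, while vehicle averaged 261 CPM. Vehicle is therefore given below as a level only, with no test.

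At 500 µg/mL, 706 genes rose and 556 fell relative to 20 µg/mL, by edgeR's quasi-likelihood test with a Benjamini-Hochberg adjusted p under 0.05. Those are 4.24% and 3.34% of the 16644 genes tested, and together 7.58%. Counts of called list members below are to be set beside these shares. Most changes were small. The median absolute log2 fold change of the called genes was 0.30, and 31 genes rose and 19 fell at least 2-fold. Among genes with at least 5 CPM at either dose, the largest changes were a rise of CYP1A1, a detoxifying cytochrome P450, and a fall of HAMP, which encodes the iron hormone hepcidin, and of the metallothionein genes. In 1249 of the 1262 called genes (99.0%) all 3 libraries at one dose lay above all 3 at the other, as in 26.4% of all genes tested (4401 genes). Leaving out any 1 of the 6 libraries gave 570 to 606 higher and 313 to 398 lower calls. The lower count fell furthest, to 313, without 500 µg/mL replicate 2.

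**Figure D1:**
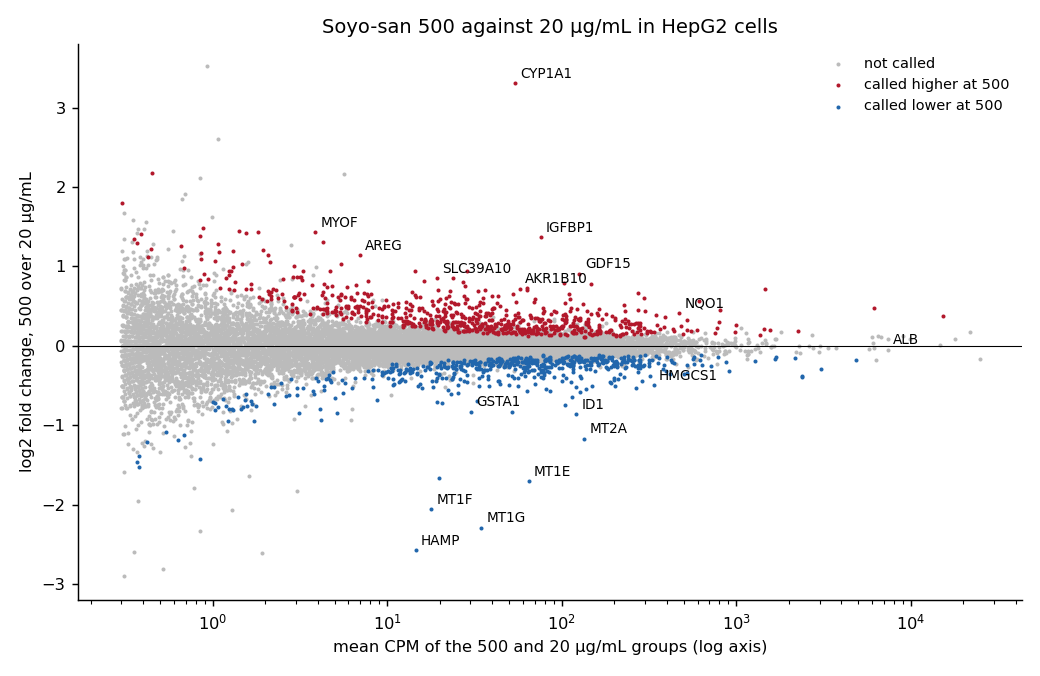
Each point is 1 gene, with the mean CPM of the 500 and 20 µg/mL groups on a log axis and the log2 fold change of 500 over 20 µg/mL; red and blue mark the 706 genes called higher and the 556 called lower, genes under 0.3 CPM are not drawn, and MT1M and PVRIG2P, which is not called, lie below the axis. CYP1A1 stands at the top at 3.31, HAMP and metallothionein genes at the bottom, and most called genes lie close to 0.

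CYP1A1 encodes the P450 enzyme that is the classic readout of the aryl hydrocarbon receptor (AHR), a ligand-activated transcription factor that binds plant and aromatic compounds, enters the nucleus and pairs with ARNT on xenobiotic response elements. CYP1A1 lies on chromosome 15 (chr15 74719542 to 74725610, minus strand, GENCODE v29 on GRCh38). Its level was 97.7, 99.1 and 97.6 CPM at 500 µg/mL, against 10.7, 9.86 and 9.25 CPM at 20 µg/mL. The groups are far apart, and the libraries within each dose lie close together. The log2 fold change was 3.31 ± 0.07 (adjusted p = 4.1e-40). The 300 bases around its start (chr15:74725479-74725778, minus strand, RefSeq on GRCh38.p14) are shown because CYP1A1 led the response, with the xenobiotic response element core GCGTG, searched on both strands, in capitals. It occurs 1 time, beginning 57 bases before the start, and 36.3% of the 27305 promoter windows of this length in the RefSeq table hold at least 1. Among the windows of tested genes 49.9% do.
CYP1A1: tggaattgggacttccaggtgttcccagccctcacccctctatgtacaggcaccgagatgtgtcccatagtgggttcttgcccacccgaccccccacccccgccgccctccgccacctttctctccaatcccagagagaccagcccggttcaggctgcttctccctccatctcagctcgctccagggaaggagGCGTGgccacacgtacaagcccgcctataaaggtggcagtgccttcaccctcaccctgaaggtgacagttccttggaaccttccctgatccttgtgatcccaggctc

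Of 6 tested AHR target genes 3 rose and 2 fell, with a median log2 fold change of 0.41 against -0.006 over all genes tested. ALDH3A1, an aldehyde dehydrogenase, had 2.35, 1.87 and 1.98 CPM at 500 µg/mL, against 0.755, 0.688 and 0.823 CPM at 20 µg/mL (log2 fold change 1.45 ± 0.25, adjusted p = 3.1e-05). AHRR, the repressor of the receptor, was called higher at 0.84 ± 0.27 (adjusted p = 0.041), and its groups are only narrowly apart, with 0.891 CPM in the lowest library at 500 µg/mL and 0.879 CPM in the highest at 20 µg/mL. Its call is lost without 20 µg/mL replicate 1 or 3 or 500 µg/mL replicate 2, with adjusted p of 0.17, 0.15 and 0.46. The falling members were NFE2L2, which encodes the oxidative stress factor NRF2, at -0.25 ± 0.05 (adjusted p = 8.2e-05) and the amino acid transporter SLC7A5, whose call is lost without any 1 of the 6 libraries (adjusted p up to 0.12), so that 1 member is called lower in each of those cases. TIPARP, another receptor target, had a log2 fold change of -0.02.

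NRF2 is released from KEAP1 under oxidative or electrophilic stress and switches on genes of quinone reduction, glutathione synthesis and drug export. Of 30 tested NRF2 targets 13 rose and 2 fell, with a median of 0.17. With 1 library left out the rising count is 8 to 11, with 8 without 20 µg/mL replicate 2. AKR1B10, an aldo-keto reductase, had 72.4, 72.4 and 70.0 CPM at 500 µg/mL, against 44.1, 40.4 and 45.9 CPM at 20 µg/mL (0.72 ± 0.06, adjusted p = 2.5e-13). NQO1, the quinone reductase, had 548, 534 and 530 CPM at 500 µg/mL, against 409, 405 and 394 CPM at 20 µg/mL (0.42 ± 0.05, adjusted p = 1.4e-09). Neither gene's groups overlap. The conjugate export pump ABCC2 rose by 0.39 ± 0.04 and the glutathione synthesis subunit GCLM was called at 0.37. HMOX1, the heme oxygenase that NRF2 can induce, had 55.8, 57 and 55.9 CPM at 500 µg/mL, against 59.4, 56.7 and 59.9 CPM at 20 µg/mL, and its log2 fold change of -0.06 ± 0.06 did not pass the test (adjusted p = 0.68). One of the members called lower was PGD, which makes NADPH in the pentose phosphate pathway, at -0.13. The count called lower is 1 without 500 µg/mL replicate 1 or 2 or 20 µg/mL replicate 2.

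Metallothioneins are small cysteine-rich proteins that bind zinc and copper, and their genes are switched on by the zinc sensor MTF1 through metal response elements. All 8 tested genes of the list of metallothioneins and zinc export fell, with a median log2 fold change of -1.69, and 7 or 8 were called without any 1 library. The 7 metallothionein genes lie together on chromosome 16 (chr16 56608199 to 56684196, GENCODE v29 on GRCh38). MT1G had 13, 10.8 and 11.5 CPM at 500 µg/mL, against 54.0, 53.6 and 64.8 CPM at 20 µg/mL (-2.29 ± 0.16, adjusted p = 1.1e-13). MT2A had 82.6, 78.2 and 86.3 CPM at 500 µg/mL, against 170, 185 and 200 CPM at 20 µg/mL (-1.17 ± 0.16, adjusted p = 1.7e-06). MT1F fell by 2.06, MT1E fell by 1.71 and MT1X fell by 1.67 on the log2 scale, and in each the groups are well apart. MT1M had 0, 1 and 1 counts at 500 µg/mL, against 19, 16 and 42 counts at 20 µg/mL, a ratio of 0.027 with an exact 95% counting interval of 0.00322 to 0.101. These genes are near-identical in places, so how shared reads were assigned affects each one. The sum of the 7 tested genes does not depend on the split among them, although reads assigned to any other related gene are outside it. That sum was 147, 136 and 143 CPM at 500 µg/mL, against 375, 392 and 442 CPM at 20 µg/mL. Vehicle had 454, 429 and 433 CPM. The zinc exporter SLC30A1, another MTF1 target, was called at -0.39.

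Of 14 tested genes in a list of zinc importers and the zinc sensor, 2 rose and none was called lower (14.3% called, against 7.58% over all genes tested). That list also holds SLC30A5, SLC30A6, SLC30A7 and SLC30A9, which belong to the family of the exporter SLC30A1 and are not importers. None of these was called. SLC39A10 (ZIP10) had 25.2, 25.0 and 23.8 CPM at 500 µg/mL, against 15.4, 13.1 and 12.4 CPM at 20 µg/mL (0.86 ± 0.10, adjusted p = 2.8e-09). SLC39A4 (ZIP4), the importer that is mutated in the zinc deficiency disease acrodermatitis enteropathica, rose by 0.59 ± 0.07 (adjusted p = 6.1e-09). MTF1 itself had a log2 fold change of -0.14 and was not called. The promoters of MT1X and MT2A are shown as members of the group that fell most, from chr16:56682220-56682519 and chr16:56608334-56608633, plus strand, with capitals for the metal response element core TGCNCNC on either strand. MT1X holds 4 matches and MT2A 8. At least 1 is found in 55.2% of all promoter windows and 3 or more in 8.47%. Among the windows of tested genes these shares are 63.1% and 10.4%. Of the 8 tested genes of metallothioneins and zinc export, only 3 had a window to search. All 3 hold at least 1 match and 2 hold 3 or more. In MT2A 2 of the 8 matches overlap a GCGTG match, in MT1X none does, and 1 MT2A match begins 30 bases after the start. The core GCGTG, shown above for the rising CYP1A1 with 1 match, occurs 2 times in the MT1X window and 3 times in that of MT2A.
MT1X: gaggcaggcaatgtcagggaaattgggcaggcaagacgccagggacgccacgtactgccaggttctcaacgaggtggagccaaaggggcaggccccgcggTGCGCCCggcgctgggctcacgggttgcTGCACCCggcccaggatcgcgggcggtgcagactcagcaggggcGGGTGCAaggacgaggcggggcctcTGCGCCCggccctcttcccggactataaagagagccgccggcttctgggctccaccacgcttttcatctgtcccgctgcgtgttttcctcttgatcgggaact
MT2A: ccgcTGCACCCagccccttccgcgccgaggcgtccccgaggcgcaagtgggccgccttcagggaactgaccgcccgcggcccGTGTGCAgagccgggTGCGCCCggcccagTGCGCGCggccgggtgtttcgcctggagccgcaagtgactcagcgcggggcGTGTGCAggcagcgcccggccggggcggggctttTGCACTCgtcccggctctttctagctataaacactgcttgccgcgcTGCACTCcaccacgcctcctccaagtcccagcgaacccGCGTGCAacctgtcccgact

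Hepcidin is secreted by hepatocytes and lowers blood iron by removing the iron exporter ferroportin from cell surfaces. Its gene HAMP is driven by bone morphogenetic protein (BMP) signalling through SMAD factors, which also switch on ID1, ID2, ID3, SMAD6 and SMAD7. Of 19 tested genes for iron handling 6 fell and 1 rose, and the 6 that fell are these BMP-SMAD targets. The same number fell without any 1 library. HAMP (chr19 35280716 to 35285143, plus strand) had 4.15, 4.24 and 4.17 CPM at 500 µg/mL, against 25.6, 23.7 and 25.3 CPM at 20 µg/mL (-2.57 ± 0.15, adjusted p = 1.5e-16). The libraries of each dose sit closely together, and the level was 5.93-fold lower at 500 µg/mL. ID1, an inhibitor of helix-loop-helix factors, had 79.2, 90.2 and 88.9 CPM at 500 µg/mL, against 153, 147 and 169 CPM at 20 µg/mL (-0.86 ± 0.08, adjusted p = 7.2e-11). ID3 fell by 0.84, ID2 fell by 0.75 and the inhibitory SMAD7 fell by 0.71, and SMAD6 was called at -0.50. Genes that store or carry iron were not called, with log2 fold changes of -0.01 for FTH1, 0.11 for FTL, -0.08 for TF and 0.09 for the ferroportin gene SLC40A1. The transferrin receptor gene TFRC was called higher at 0.21, and that call is lost without 500 µg/mL replicate 1 or 2 or 20 µg/mL replicate 2 or 3. The HAMP promoter (chr19:35282278-35282577, plus strand) is shown with the BMP response element core GGCGCC in capitals. It occurs 1 time, beginning 105 bases before the start, and in 19% of all windows and 30.0% of those of tested genes. Of 5 of the falling targets (HAMP, ID1, ID2, ID3 and SMAD7), HAMP alone holds it. SMAD6 was not in the set that was counted.
HAMP: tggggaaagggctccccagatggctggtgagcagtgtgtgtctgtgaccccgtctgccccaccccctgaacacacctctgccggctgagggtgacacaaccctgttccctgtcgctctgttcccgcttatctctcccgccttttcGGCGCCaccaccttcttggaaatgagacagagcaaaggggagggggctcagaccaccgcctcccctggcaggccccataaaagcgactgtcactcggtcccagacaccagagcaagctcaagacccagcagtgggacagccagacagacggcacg

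**Figure D2:**
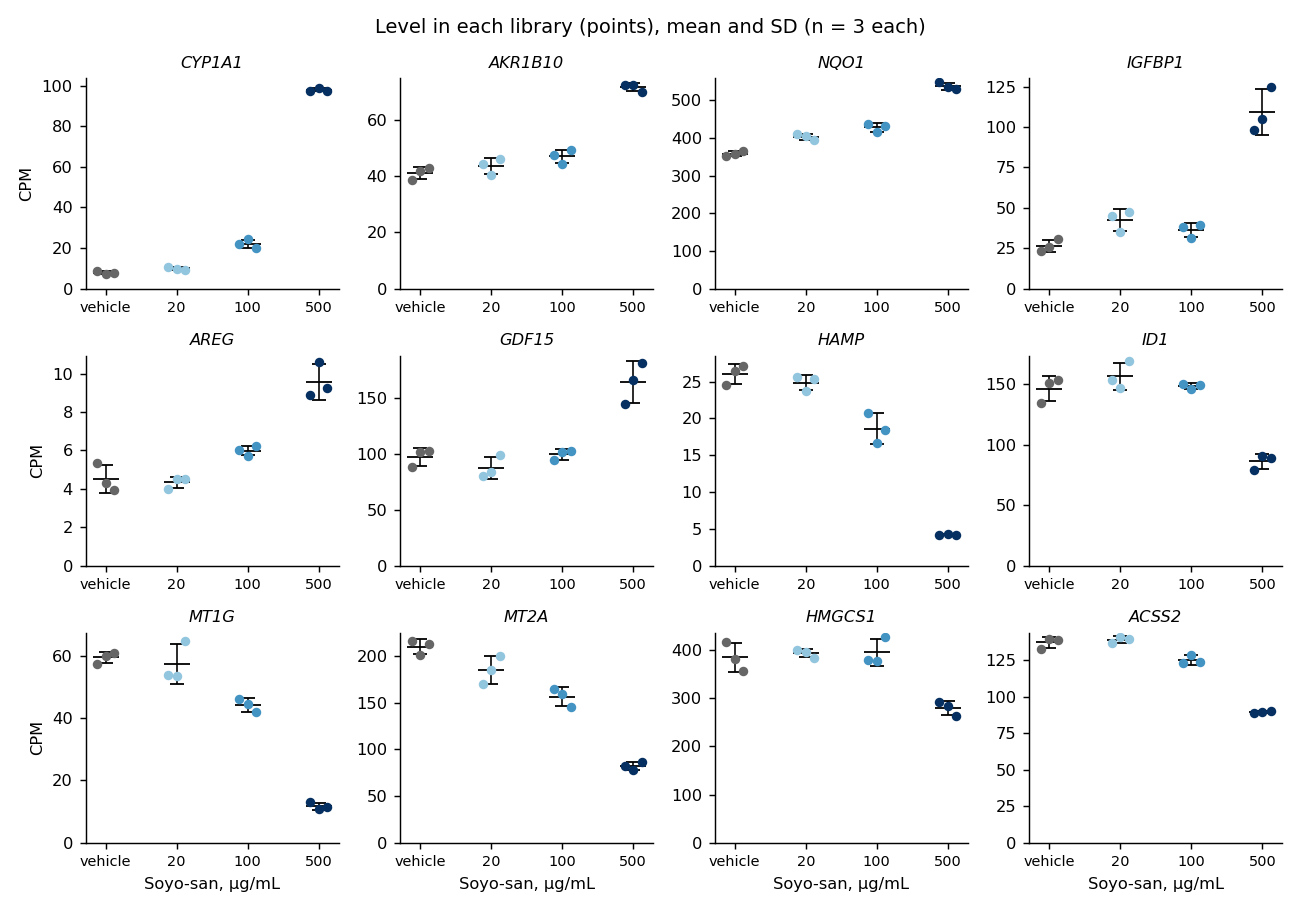
CPM of 12 genes in every library of vehicle and of Soyo-san at 20, 100 and 500 µg/mL, from low to high dose; points are libraries and bars give mean and SD (n = 3 each). CYP1A1 steps up at 100 µg/mL (22 CPM on average) and again at 500 µg/mL (98.1 CPM), while HMGCS1 stays near its 20 µg/mL level at 100 µg/mL, HAMP and MT1G lie somewhat lower there without being called, and all 3 are lower at 500 µg/mL.

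Most genes of lipid synthesis fell, by smaller amounts. The genes of cholesterol synthesis share the sterol-sensing factor SREBF2, and fatty acid synthesis its relative SREBF1. Of 27 tested genes of cholesterol synthesis and uptake 20 fell and none was called higher, with a median of -0.26, and 15 to 17 were called lower without any 1 library. HMGCS1, which makes the precursor of mevalonate, had 292, 283 and 264 CPM at 500 µg/mL, against 400, 396 and 384 CPM at 20 µg/mL (-0.49 ± 0.05, adjusted p = 5.3e-10). MVD and LSS, later enzymes of the same path, fell by 0.50 and 0.44. Of 18 genes of fatty acid synthesis 12 fell, with a median of -0.25. ACSS2, which makes acetyl-CoA from acetate, had 88.8, 89.3 and 90.5 CPM at 500 µg/mL, against 137, 141 and 140 CPM at 20 µg/mL (-0.64 ± 0.04, adjusted p = 1.6e-16). The desaturases FADS2 and FADS1 fell by 0.53 and 0.39, and the acyltransferase GPAM fell by 0.51. In each of these genes the groups are apart, although the changes are under 2-fold.

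Of 20 genes of fatty acid oxidation and PPARA targets 4 rose and none was called lower. The pantetheinase VNN1 had 2.91, 2.45 and 2.67 CPM at 500 µg/mL, against 0.713, 1.19 and 1.06 CPM at 20 µg/mL (1.43 ± 0.20, adjusted p = 4.4e-07). CPT1A, which admits fatty acids to mitochondria, rose by 0.39 ± 0.07, the dehydrogenase ACADVL by 0.29 ± 0.05 and the lipid droplet coat gene PLIN2 by 0.22 ± 0.05. Among 13 bile acid genes 3 rose and 3 fell. NR1H4, the bile acid receptor FXR, had 25.6, 25.7 and 24.0 CPM at 500 µg/mL, against 41.4, 43.0 and 37.5 CPM at 20 µg/mL (-0.69 ± 0.06, adjusted p = 3.9e-13). NR0B2, the repressor that FXR induces, rose by 0.46 ± 0.07 and the bile acid conjugating enzyme BAAT by 0.64 ± 0.12. With 1 library left out 1 to 2 bile acid genes were called lower, with 1 without 20 µg/mL replicate 3.

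Part of the glucose genes rose. Of 21 tested glycolysis genes 9 rose and none was called lower, with a median of 0.17. The glucose transporter SLC2A1 had 914, 939 and 956 CPM at 500 µg/mL, against 688, 656 and 714 CPM at 20 µg/mL (0.45 ± 0.05, adjusted p = 2.8e-10). LDHA, which makes lactate, rose by 0.26 ± 0.05 and PGAM1 by 0.24 ± 0.04. Of 24 hypoxia targets 6 rose. They include INSIG2, an ER protein of sterol sensing, at 0.50 and the collagen crosslinker LOXL2 at 0.72. VEGFA, ADM and CA9, textbook hypoxia genes, had -0.04, -0.02 and 0.25 and were not called.

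Of 18 genes of gluconeogenesis and FOXO targets 6 rose and 1 fell, and only 3 were called higher without 500 µg/mL replicate 3 or without 20 µg/mL replicate 3. The 1 that fell, MLXIPL, is not called without 20 µg/mL replicate 3. IGFBP1, a secreted binding protein for insulin-like growth factors that FOXO factors induce, had 98.0, 105 and 125 CPM at 500 µg/mL, against 45.1, 34.7 and 47.3 CPM at 20 µg/mL (1.37 ± 0.22, adjusted p = 3e-05). At 100 µg/mL it averaged 36.2 CPM, so the rise is seen between the upper doses. DEPP1, another FOXO target, had 33.5, 38.4 and 41.3 CPM at 500 µg/mL, against 17.5, 19 and 22.6 CPM at 20 µg/mL (0.94 ± 0.14, adjusted p = 9.2e-06). For both genes the vehicle level lay away from that at 20 µg/mL. IGFBP1 averaged 26.5 CPM in vehicle and 42.4 CPM at 20 µg/mL, and DEPP1 averaged 29.6 and 19.7 CPM.

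Part of the growth factor signalling genes rose. Amphiregulin, epiregulin and HB-EGF are ligands of the epidermal growth factor receptor, and the DUSP phosphatases are feedback brakes on the MAPK path below it. Of 18 such genes 5 rose and none was called lower, with a median of 0.16. AREG had 8.86, 10.6 and 9.23 CPM at 500 µg/mL, against 3.99, 4.51 and 4.51 CPM at 20 µg/mL (1.14 ± 0.12, adjusted p = 1e-10). EREG had 1.41, 1.25 and 1.26 CPM at 500 µg/mL, against 0.42, 0.535 and 0.431 CPM at 20 µg/mL (1.48 ± 0.28, adjusted p = 0.00011). Neither ligand's groups overlap. HBEGF was called at 0.70 ± 0.19, but its value of 4.09 CPM in 500 µg/mL replicate 3 carries that, and without that library its adjusted p is 0.39. DUSP6 rose by 0.65 ± 0.08 (adjusted p = 8.8e-08) and TGFA was called at 0.37. Of 20 immediate early genes 6 rose, among them the survival gene IER3 at 0.59 ± 0.11, the transcription factors EGR1 at 0.48 ± 0.10 and KLF6 at 0.44 ± 0.05. With only the compared groups in the fit, IER3 and HBEGF had adjusted p = 0.099 and 0.057. FOS and MYC had 0.27 and 0.05 and were not called.

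Several adhesion, matrix and cytoskeletal genes rose. MYOF, a membrane repair protein, had 5.99, 5.37 and 5.55 CPM at 500 µg/mL, against 1.85, 2.26 and 2.16 CPM at 20 µg/mL (1.43 ± 0.15, adjusted p = 1.2e-10). Of 18 genes of TGF-beta, collagen and matrix 7 rose and 2 fell, such as the collagen receptor subunit ITGA2 at 0.65 ± 0.07 (adjusted p = 1.5e-09) and TIMP1 at 0.41 ± 0.09, with SMAD7 and SKIL on the falling side, of which 1 is called without 500 µg/mL replicate 3. Of 23 YAP, SRF and actin genes 7 rose, such as the actin-binding TAGLN at 0.54 ± 0.09 and the matricellular CCN1 at 0.52 ± 0.09, while the median was 0.01 and ANKRD1 and CCN2 had -0.11 and 0.25, both not called. Of 11 tubulins 6 rose, such as TUBA1A at 0.51 ± 0.07 and TUBB6 at 0.38 ± 0.07, and 5 were not called, among them TUBA1B at -0.02 and TUBB at -0.09. The tubulin genes share sequence, so single values carry that doubt. Among the other largest rises, AQP3, a water and glycerol channel, was at 1.31 ± 0.12, CD109, a co-receptor that dampens TGF-beta, at 0.95 ± 0.09, the glycosyltransferase B3GNT3 at 0.94 ± 0.13, the stress cytokine GDF15 at 0.91 ± 0.10, the adhesion molecule L1CAM at 0.85 ± 0.07, the RNA-binding RBM47 at 0.81 ± 0.10, the caveolar CAVIN2 at 0.80 ± 0.06 and the noncoding LINC02802 at 0.78 ± 0.16.

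Part of the proliferation genes fell. Of 29 genes of G2 and mitosis 14 fell and none was called higher, with a median of -0.18. With 1 library left out the count is 8 to 12, with 8 without 500 µg/mL replicate 1 or without 20 µg/mL replicate 2. PLK1, a mitotic kinase, had 247, 247 and 263 CPM at 500 µg/mL, against 301, 306 and 313 CPM at 20 µg/mL (-0.28 ± 0.05, adjusted p = 1.6e-05). CCNA2, cyclin A, fell by 0.27 and the kinesin gene KIF20A fell by 0.28. MKI67, the proliferation marker, had 494, 481 and 463 CPM at 500 µg/mL, against 556, 639 and 534 CPM at 20 µg/mL, a log2 fold change of -0.27 ± 0.09 that did not pass the test (adjusted p = 0.051; 0.026 by DESeq2). Of 31 genes of G1/S and DNA replication 7 fell, including the helicase genes MCM3 at -0.25 and MCM7 at -0.24, and with 1 library left out the count is 2 to 5, with 2 without 20 µg/mL replicate 2, 3 without 20 µg/mL replicate 1 and 4 without 500 µg/mL replicate 2 or 3. No replication-dependent histone of 15 was called. Of 25 p53 targets 2 rose, GDF15 and the cell cycle inhibitor CDKN1A, which is 8.0% against 7.58% over all genes tested. CDKN1A was at 0.29 ± 0.06 (adjusted p = 0.00053), while MDM2 had 0.07 and was not called.

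Of the tested genes 10.7% were called in the ATF4 list, 4.55% in the unfolded protein list and 15.0% in the heat shock list. Over all genes tested the share was 7.58%. Of 28 ATF4 and amino acid response genes 1 rose and 2 fell in the full data, and neither fall was called when any 1 library was left out. The rise, ATF3, is lost without replicate 2 or 3 of either dose. Of 22 ER chaperone and unfolded protein genes 1 rose, EDEM1 at 0.33 ± 0.06, and 2 did without replicate 2 of either dose. Of 20 heat shock genes 3 fell, with DNAJA1 at -0.19 ± 0.04, and 1 did without replicate 2 of either dose or without 500 µg/mL replicate 3. HSPA1A, which shares sequence with HSPA1B, had -0.15 ± 0.08 and was not called (adjusted p = 0.32). None of 20 cytosolic tRNA synthetases, 45 cytosolic ribosomal protein genes, 35 nuclear genes of oxidative phosphorylation, 13 mitochondrial mRNAs, 16 clock genes or 8 nuclear noncoding RNAs was called, and their medians lay between -0.13 for clock genes and 0.06 for oxidative phosphorylation. Of 28 proteasome genes 5 rose, by at most 0.22, and 1 to 3 did when any 1 library was left out. Of 33 lysosome and autophagy genes 8 rose and 1 fell, such as the autophagosome gene GABARAPL1 at 0.54 ± 0.09 and SQSTM1 at 0.34 ± 0.05, the cargo receptor that is also an NRF2 target. The fall, TFEB at -0.28, is called in the full data and without 20 µg/mL replicate 1, and in no other case with 1 library left out. Of 12 NF-kB targets and chemokines 3 rose and 1 fell (33.3% called, median 0.27), with ICAM1 at 0.35 ± 0.05, and the fall, NFKBIA, is lost without any 1 library. Of 19 interferon-stimulated genes 2 rose (10.5% called), by 0.34 in OAS1 and 0.49 in ISG20. Without 20 µg/mL replicate 1 neither of those was called, and without 500 µg/mL replicate 1, or with no filter on low counts (adjusted p of OAS1 0.058), only ISG20 was.

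**Figure D3:**
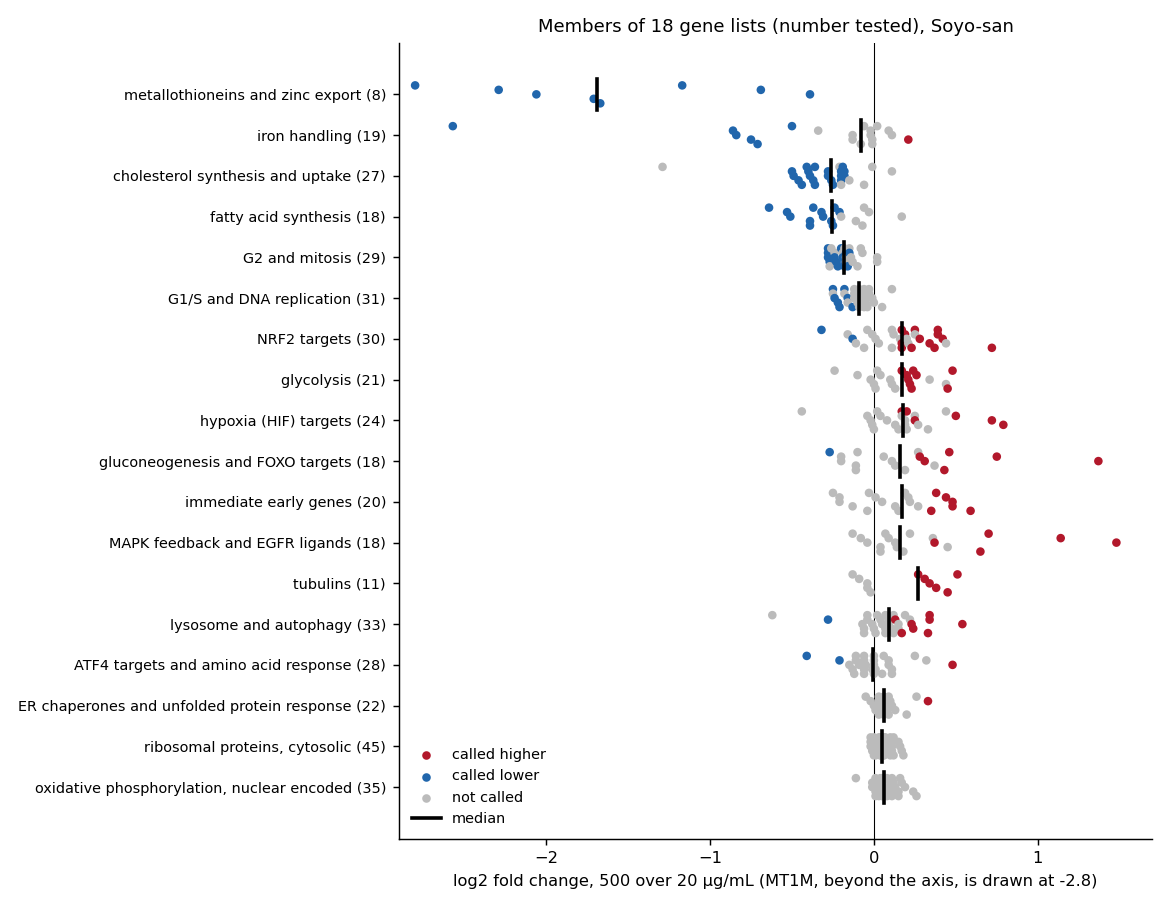
Log2 fold change of 500 over 20 µg/mL for the tested members of 18 gene lists; each point is a gene, red and blue are called higher and lower, grey not called, and the black bar is the list median. Metallothioneins lie far to the left with a median of -1.69, cholesterol genes have a median of -0.26, and ribosomal protein genes cluster near 0.

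The liver's secreted and metabolic genes changed one by one. ALB, the major plasma protein, had 7390, 7160 and 7190 CPM at 500 µg/mL, against 7770, 7210 and 7500 CPM at 20 µg/mL, and was not called (-0.05 ± 0.05, adjusted p = 0.67). Of 23 genes of secreted carriers and hepatocyte identity 5 fell and 3 rose. CEBPA, a hepatocyte transcription factor, had 104, 103 and 100 CPM at 500 µg/mL, against 156, 146 and 158 CPM at 20 µg/mL (-0.58 ± 0.11, adjusted p = 0.00022). FOXA1 fell by 0.29 and HNF4A had 0.02 and was not called. With 1 library left out, 2 to 4 genes of that list were called lower, with 2 without 500 µg/mL replicate 2 or 20 µg/mL replicate 3. Without 20 µg/mL replicate 2 or 500 µg/mL replicate 3 only 1 was called higher. Of 15 acute phase genes 3 rose and 1 fell, with ceruloplasmin (CP) at 0.44 ± 0.10 and SERPINA3 at 0.41 ± 0.08 (adjusted p = 0.12 with only the compared groups in the fit). The fall, HPX, is lost without any 1 library other than 20 µg/mL replicate 2. Of 25 coagulation and complement genes 1 rose and 2 fell, and KNG1, the kinin precursor, had 2.83, 2.75 and 3.04 CPM at 500 µg/mL, against 5.41, 5.43 and 5.64 CPM at 20 µg/mL (-0.94 ± 0.12, adjusted p = 4.5e-08). The others called there, MASP1 higher and SERPINC1 lower, lose their calls in 2 and 4 of the 6 cases with 1 library left out. Of 16 apolipoprotein and lipoprotein genes 2 rose and 2 fell, with APOM at 0.55 ± 0.10. With any 1 library left out, 0 to 3 genes of that list were called lower. Of 14 urea cycle and glutamine genes 2 rose and 2 fell, with CPS1, the first urea cycle enzyme, at -0.29 ± 0.06 and ARG2 at 0.40 ± 0.05.

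Drug-handling genes outside the AHR and NRF2 lists moved in both directions. Of 20 phase II genes 3 fell and 2 rose. GSTA1 and GSTA2, glutathione transferases that share sequence, fell by 0.83 and 0.85, and GSTA1 had 22.1, 21 and 22.4 CPM at 500 µg/mL, against 39.3, 41.6 and 35.3 CPM at 20 µg/mL (-0.83 ± 0.10, adjusted p = 6.4e-08). The steroid sulfotransferase SULT2A1 fell by 0.32. Both phase II rises, UGT2B10 and NAT8, lose their calls without 20 µg/mL replicate 1. NAT8 also loses its call without 20 µg/mL replicate 2 or 500 µg/mL replicate 1 or 2 (adjusted p up to 0.26), with no filter on low counts and with fewer libraries in the fit. Of 9 PXR and CAR targets 2 rose and 1 fell, with the export pump ABCB1 at 0.32 ± 0.06. The other rise, CYP3A5 at 0.48 ± 0.12, is lost without 500 µg/mL replicate 3 (adjusted p = 0.097). CYP3A4, the main drug-metabolizing P450 of adult liver, had at most 0.283 CPM in the 6 libraries and was too low to test. The remaining largest falls were in TNFAIP8L3, a phospholipid transfer protein, at -0.79 ± 0.11, and SCNN1A, a subunit of the epithelial sodium channel, at -0.72 ± 0.07.

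The middle dose, 100 µg/mL, was set against the same low dose. Against 20 µg/mL, 1 gene of 16644 was called at 100 µg/mL (0.00601%), CYP1A1, which had 21.9, 24.2 and 19.9 CPM at 100 µg/mL against 10.7, 9.86 and 9.25 CPM at 20 µg/mL (1.15 ± 0.07, adjusted p = 3.4e-17). At an unadjusted p under 0.05 there were 636 genes, against 3062 for 500 over 20 µg/mL. By other tools and settings 1 to 84 genes were called. Both doses are set against the same 3 libraries at 20 µg/mL. HAMP had 20.8, 16.6 and 18.5 CPM at 100 µg/mL, and MT1G had 46.2, 44.7 and 41.9 CPM. Their log2 fold changes of 100 over 20 µg/mL were -0.41 ± 0.12 and -0.38 ± 0.14, in each gene the libraries at 100 and 20 µg/mL do not overlap, and neither was called (adjusted p = 0.90 and 1.00). Vehicle levels lay near the 20 µg/mL levels for CYP1A1 (8.49, 7.07 and 7.68 CPM) and HAMP (24.5, 26.5 and 27.1 CPM).

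The dose difference was then set beside that of Menthae Herba, the mint extract, which shares no library with it. Menthae Herba at 500 over 20 µg/mL changed 5346 genes (32.1% of those tested). Of the 1262 genes called for Soyo-san, 1137 were called in the same direction for Menthae Herba, which is 90.1% of the Soyo-san calls and 21.3% of the Menthae Herba calls, and 5 were called in the opposite direction. The difference between the dose effects, tested as an interaction, was called for 1094 of all genes (6.57%) and for 402 of the 1262 (31.9%). In 386 of these 402 the change was larger in Menthae Herba, in 3 it was larger in Soyo-san with the same sign, and in 13 the signs were opposite. HAMP fell by 2.57 in Soyo-san and fell by 5.18 in Menthae Herba on the log2 scale (difference 2.61 ± 0.30, adjusted p = 4.2e-08). IGFBP1 rose by 1.37 in Soyo-san and by 3.35 in Menthae Herba (difference -1.99 ± 0.31, adjusted p = 1.8e-05). CYP1A1 had 3.31 in Soyo-san and 3.08 in Menthae Herba, a difference of 0.23 ± 0.10 that did not pass the test (adjusted p = 0.17). MT2A and HMGCS1 likewise had differences that did not pass (adjusted p = 0.97 and 0.61). Of the 8 tested genes of metallothioneins and zinc export, however, 4 fell less in Soyo-san with a called difference. The medians of that list were -1.69 for Soyo-san and -2.71 for Menthae Herba.

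**Figure D4:**
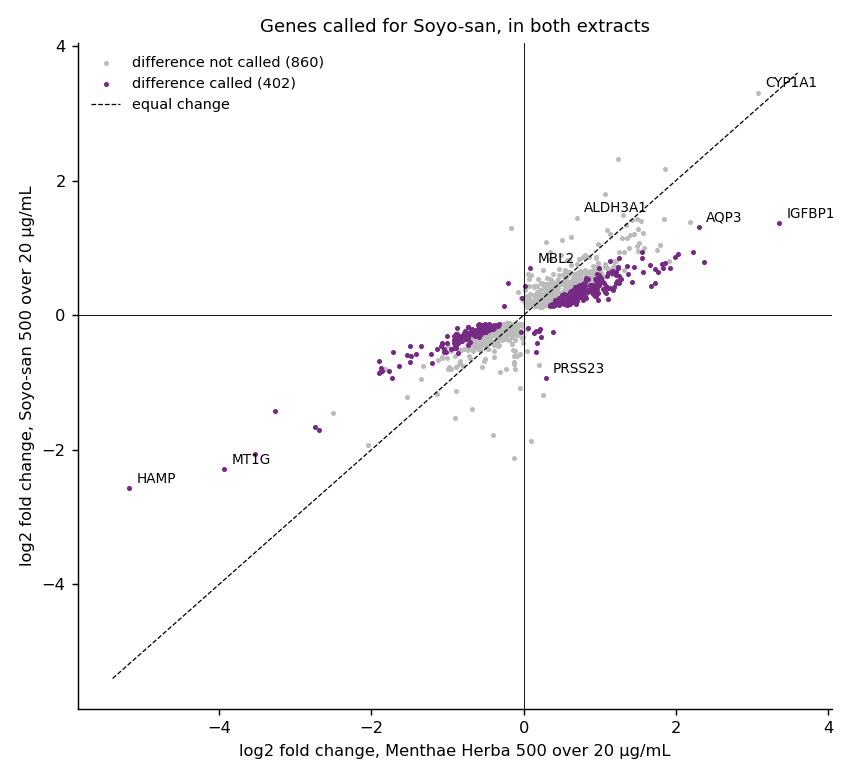
Log2 fold change of 500 over 20 µg/mL for the 1262 genes called for Soyo-san, with Menthae Herba on the horizontal and Soyo-san on the vertical axis; purple marks the 402 genes whose dose effects differed, grey the rest, and the dashed line is equal change. MT1M, with 2 counts in all at 500 µg/mL, is not drawn. Most purple genes lie on the Menthae Herba side of the line, and CYP1A1 lies close to it.

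By list, all 29 genes of G2 and mitosis fell with Menthae Herba, and the dose effects differed in 25 of them, with medians of -0.18 for Soyo-san and -0.59 for Menthae Herba. In glycolysis 13 of 21 genes differed (medians 0.17 and 0.52) and in hypoxia targets 15 of 24 (0.18 and 0.64). Of 28 ATF4 genes 12 differed, with medians of -0.01 for Soyo-san and 0.29 for Menthae Herba. Of 27 cholesterol genes 3 differed (medians -0.26 and -0.40). Tubulins parted in another way, since in both extracts 6 rose, while 5 fell with Menthae Herba and none with Soyo-san, and the dose effects differed in 5. The 3 genes with a larger change in Soyo-san were MBL2, the mannose-binding lectin of complement, at 0.70 in Soyo-san and 0.09 in Menthae Herba (difference adjusted p = 3.5e-05), RAB27A, a vesicle GTPase, at 0.44 and 0.01 (adjusted p = 0.045), and ACSL3, an acyl-CoA synthetase, at -0.24 and -0.03 (adjusted p = 0.04). The 5 genes called in opposite directions were the histone demethylase KDM7A, the adaptor SH2B3, the p53 target DRAM1, the hepatokine INHBE and the fibrinogen chain FGA. FGA had 1440, 1420 and 1450 CPM with Soyo-san at 500 µg/mL, against 1320, 1300 and 1310 CPM at 20 µg/mL, and its log2 fold change was 0.13 with Soyo-san and -0.26 with Menthae Herba (difference 0.39, adjusted p = 2.1e-07); the Soyo-san call is lost with no filter on low counts (adjusted p = 0.22). The Soyo-san calls of KDM7A, SH2B3, DRAM1 and INHBE are lost in 4, 5, 5 and 3 of the 6 cases with 1 library left out, and the differences of RAB27A and ACSL3 in 7 and 8 of 12. These 8 genes were named after their values were seen, as the complete sets.

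Okbyeongpung-san, another formula of the series, changed 4 genes between 500 and 20 µg/mL (0.024%; 776 at an unadjusted p under 0.05). Its dose effect differed from that of Soyo-san in 392 genes (2.36%), among them 369 of the 1262 genes called for Soyo-san. Of these 369, 144 had the same sign with a larger change in Soyo-san and 225 had opposite signs, but none of the 1262 was called in the opposite direction for Okbyeongpung-san. The 1262 genes were selected by their change in the same Soyo-san libraries, which favours a larger change there. This split is therefore no separate result. CYP1A1 averaged 32.6 CPM with Okbyeongpung-san at 500 and 9.44 CPM at 20 µg/mL, a log2 fold change of 1.79 ± 0.07, which is lower than with Soyo-san by 1.51 ± 0.10 (adjusted p = 2e-16). HAMP had 0.21 ± 0.12 with Okbyeongpung-san, a difference of -2.77 ± 0.20 for Soyo-san minus Okbyeongpung-san (adjusted p = 8.2e-14). ALDH3A1 had 1.25 with Okbyeongpung-san and 1.45 with Soyo-san, a difference of 0.20 ± 0.39 that did not pass the test (adjusted p = 0.93).

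**Figure D5:**
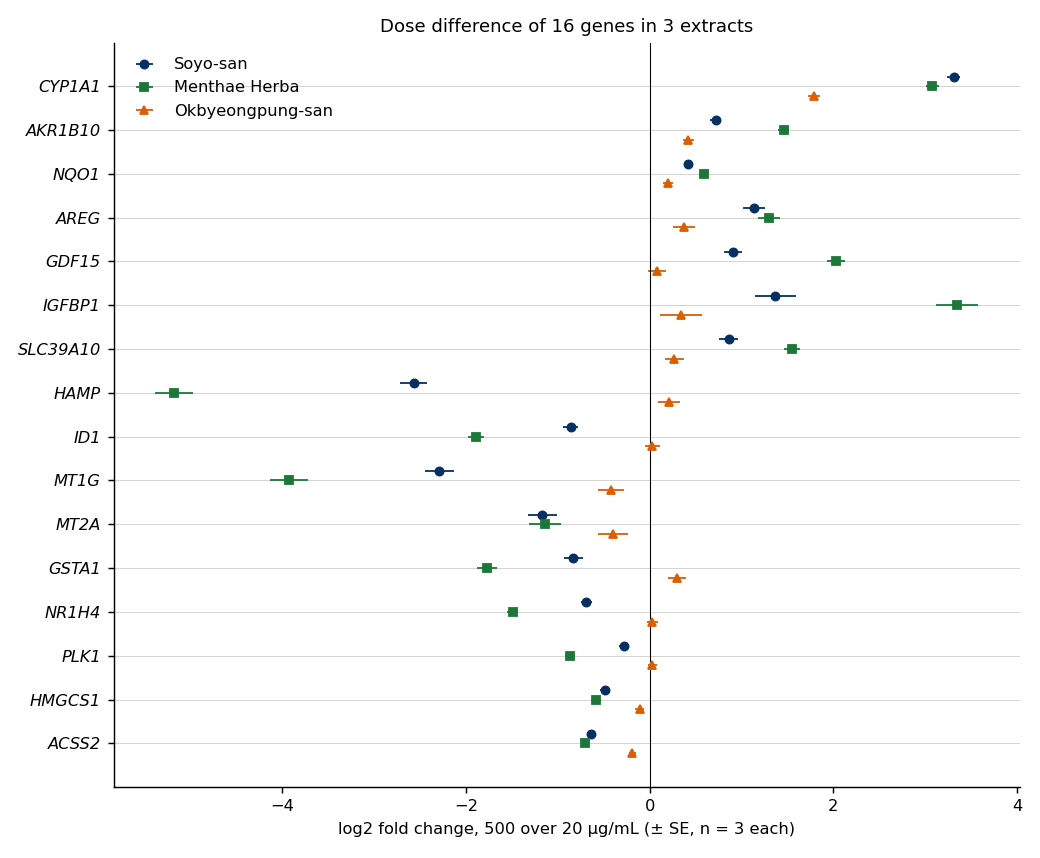
Log2 fold change of 500 over 20 µg/mL with its SE for 16 genes in Soyo-san, Menthae Herba and Okbyeongpung-san (n = 3 each dose). Soyo-san lies between the other extracts for HAMP, ID1, MT1G and GDF15, and beside Menthae Herba for CYP1A1, AREG, MT2A and HMGCS1.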

How the data were processed

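Total RNA of HepG2 cells was sequenced as paired 100-base reads with a directional kit on an MGI instrument, per the labels' protocols. FastQC 0.11.9, Trim Galore 0.6.5, STAR 2.7.3a and RSEM 1.3.3 are named with GRCh38, per the submitters' processing notes; for settings, annotation release and counting strand the status is: not given in the sources used here. The deposited values are RSEM expected counts for 60675 genes in 60 libraries (20446542 to 32386486 per library), of which 71.9% of nonzero values have no decimal part; they were rounded to whole numbers. No floor or interval beyond that of MT1M is quoted, and it covers counting error only. Genes without a symbol hold 0.54% of counts.

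edgeR 4.0.16 (R 4.3.3) fitted quasi-likelihood models with TMM scaling, filterByExpr at a minimum count of 10 and robust dispersion over the 57 libraries of 19 replicated groups; groups with 1 library were left out. P-values were adjusted over 16644 genes, and an adjusted p under 0.05 is a call. Dose effects of 2 extracts were compared by an interaction contrast. DESeq2 1.42.0, RLE and upper-quartile scaling, no filter, fewer libraries, replicate blocks and leaving out each library were tried. The fit was checked on simulated counts. Genes named are the 15 largest called changes per direction of at least 5 CPM without overlap, up to 4 called members of each of 41 pathway lists of at least 1 CPM, the 5 largest interactions per direction and 14 preset genes; other examples, including members not called, were chosen after their values were seen. Results for a few genes met by this rule are not reported here. Comparisons and lists were chosen with earlier results of these data known. Replicate pairs of a Soyo-san dose differed by more than sampling noise (chi-square per degree of freedom 3.42 to 12.15). Promoter windows, 250 bases before to 50 after the start, are RefSeq's.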

Additional observations from a re-analysis of the deposited data

Results flagged for a closer look

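The genes here were taken up because their dose effect, 500 over 20 µg/mL, differed between Soyo-san and another extract by edgeR's interaction test, from the 5 largest in each direction of at least 5 CPM. Each difference is Soyo-san minus the other extract on the log2 scale. Against Menthae Herba, HAMP differed by 2.61, MT1G by 1.64, MT1F by 1.47, TJP3, a tight junction protein, by 1.22 and EPN3, an endocytic adaptor, by 1.17, and all 5 fell less in Soyo-san. The fall of EPN3 in Soyo-san (-0.55, adjusted p = 0.023) is itself lost in 4 of the 6 cases with 1 library left out. In the other direction IGFBP1 differed by -1.99, the phosphatase DUSP5 by -1.40, the lipoprotein receptor VLDLR by -1.35 and the focal adhesion gene TNS1 by -1.34. IGFBP1 rose in both extracts. DUSP5, VLDLR and TNS1 had 0.22, 0.09 and -0.10 in Soyo-san, none called, and 1.62, 1.44 and 1.24 in Menthae Herba.

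Against Okbyeongpung-san, CYP1A1 differed by 1.51, B3GNT3 by 1.04, AQP3 by 1.00, RBM47 by 0.98 and the pseudogene CCT8P1, which can share reads with its parent gene, by 0.94. HAMP differed by -2.77, MT1G by -1.87, MT1F by -1.60, MT1E by -1.41 and MT1X by -1.31. The differences given here all stayed called under the alternatives tried. What lies behind them was not tested.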

How the results depend on the processing

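For 500 over 20 µg/mL, 1153 to 1678 genes were called under other scalings, filters, libraries and tools, against 1262, and 887 to 1004 with 1 library left out. For 100 over 20 µg/mL the count was 84 with no filter on low counts, 7 with only the groups compared, 5 with only the extract's libraries, 4 with DESeq2, and 1 to 2 with 1 library left out, against 1; CYP1A1 was called in each. The cause was not tested. Differences from Menthae Herba numbered 822 to 1442 and from Okbyeongpung-san 271 to 560. Of 133 called named genes 94 stayed called under every alternative and none of 141 tested changed sign while called. Same-numbered libraries at 500 and 20 µg/mL deviated together with correlations of 0.296, -0.162 and 0.404. Replicate 2 at 500 µg/mL correlated best with replicate 1 at 20 µg/mL (0.342). With 3 libraries a dose these values cannot show whether the numbers pair samples. With the replicate block 1312 genes were called at 500 µg/mL, and 1568 when the replicate block was nested in the leading number of the library codes, which gave 2 at 100 µg/mL.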

Other observations

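Further genes outside the lists were also called; they were picked after their values were seen. SPP1, the secreted matrix protein osteopontin, averaged 729 CPM at 500 and 492 CPM at 20 µg/mL (0.57 ± 0.08). FST, the activin antagonist follistatin, averaged 79.3 and 48.0 CPM (0.72 ± 0.05), and TGFBR3, a TGF-beta co-receptor, 334 and 211 CPM (0.66 ± 0.05). The scaffold protein AKAP12 was at 0.78 ± 0.06. The ectonucleotidase NT5E was at 0.63 ± 0.07, and the co-receptor NRP1 at 0.60 ± 0.06. Of 8 tested keratins 5 rose (KRT17, KRT18, KRT19, KRT23 and KRT80), with KRT18 at 638 CPM at 500 and 555 CPM at 20 µg/mL. The call of KRT17 is lost in 5 of the 6 cases with 1 library left out, and that of KRT80 in 1. Of 14 claudins, tight junction proteins, 4 rose and 1 fell, with CLDN6 at 0.67 ± 0.10.

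Among genes that fell, HSD11B2, which inactivates cortisol, averaged 20.2 CPM at 500 and 30.6 CPM at 20 µg/mL (-0.60 ± 0.08). The membrane-binding ANXA4 was at -0.52 ± 0.05, the protease FURIN at -0.44 ± 0.06 and the DNA methyltransferase DNMT3B at -0.44 ± 0.07. Adjusted p-values of the genes named with a log2 value were at most 1.4e-06, by edgeR.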
